A study of Mus musculus with 16 samples.

Results

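Transcripts of 10 genes on mouse chromosome 16 were followed in nuclei of the hippocampus of mice with and without *Ifnar1*. The genes were *Sod1*, *Eva1c*, *Son*, *Cryzl1*, *Itsn1*, *Runx1*, *Setd4*, *Pigp*, *Kcnj6* and *Hmgn1*, of 32285 genes in the files. They start within 20 Mb of *Ifnar1*, the farthest 4.64 Mb away, and were picked from that interval for the level they showed in mice with and without the gene. Their differences between genotypes are therefore given as a description, without p-values. The rule of choice did not use the effects of drug treatment, which were tested, though earlier results of these data were known.

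The libraries came from 16 male mice, 1 animal each. The wild-type (WT) mice were C57BL/6 aged 2 months 23 days, and the knockout (KO) mice were Ifnar1-/- aged 3 months 3 days. In each genotype, 4 animals received vehicle and 4 received DMXAA, an agonist of mouse STING, by repeated intraperitoneal injection. Because every KO mouse was older than every WT mouse, genotype and age cannot be told apart. Whether the genotypes were also prepared or sequenced in separate batches is not given in the sources used here. The cells that lack *Ifnar1* are those of the whole animal, and the sources used here do not give the strain in which the allele was made.

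*Ifnar1* encodes part of the cell surface receptor through which type I interferons act, and lies in a row of cytokine receptor genes with *Ifnar2*, *Il10rb* and *Ifngr2*. The distal end of mouse chromosome 16 carries many genes whose human counterparts are present in an extra copy in Down syndrome, those of the 10 genes among them. STING senses cyclic dinucleotides and drives interferon production, and interferon binding its receptor activates STAT transcription factors. The 10 genes serve unrelated functions in RNA processing, chromatin, membrane traffic, excitability and metabolism.

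Of the 10 genes, 4 lie on the forward strand (*Sod1*, *Eva1c*, *Son* and *Itsn1*), and the other genes on the reverse strand. Their GENCODE M21 coordinates on GRCm38 run from chr16:90220754-90226329 for *Sod1*, which starts 1.26 Mb before *Ifnar1*, to chr16:96120618-96127729 for *Hmgn1*. *Son* (chr16:91647506-91679221) starts 0.162 Mb beyond *Ifnar1* (chr16:91485238-91507441). *Setd4* (chr16:93583457-93604063) starts 2.10 Mb, *Pigp* (chr16:94358763-94371842) 2.87 Mb and *Kcnj6* (chr16:94748636-94997701) 3.26 Mb beyond it. Annotated genes overlap 9 of the 10 on either strand, *Hmgn1* being the exception. *Cryzl1* shares its strand with *Atp5o*, and *Pigp* shares its strand with *Gm15310*. *Son* lies across from *Donson*, *Sod1* from *Scaf4* and *Pigp* from *Ttc3*. Whether strand was used in counting is not given in the sources used here, so reads of overlapping genes cannot be told apart with certainty.

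Promoters were available for all 10 genes from RefSeq on GRCm38.p6, each running from 250 bases before to 50 bases after a transcript start. The interferon response core GAAANNGAA, searched on both strands, was in none of their 15 promoters and in 8.56% of all 32851 promoters. The STAT site TTCNNNGAA, which reads the same on both strands, was in 1 of the 15, a promoter of *Kcnj6*, and in 8.30% of all promoters. It was also in the promoter of *Ifnar1*. The sequences of *Ifnar1* (chr16:91484965-91485264, forward strand) and *Kcnj6* (chr16:94997647-94997946, reverse strand) are shown because they hold this match, which is in capitals. The match began 5 bases before the start in *Ifnar1* and 15 bases after it in *Kcnj6*.
*Ifnar1*: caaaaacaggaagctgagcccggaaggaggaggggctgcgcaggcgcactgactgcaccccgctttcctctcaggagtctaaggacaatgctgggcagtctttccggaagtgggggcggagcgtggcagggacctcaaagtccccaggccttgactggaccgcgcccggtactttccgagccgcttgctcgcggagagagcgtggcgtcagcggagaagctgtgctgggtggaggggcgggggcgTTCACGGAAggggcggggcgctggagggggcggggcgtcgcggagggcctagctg
*Kcnj6*: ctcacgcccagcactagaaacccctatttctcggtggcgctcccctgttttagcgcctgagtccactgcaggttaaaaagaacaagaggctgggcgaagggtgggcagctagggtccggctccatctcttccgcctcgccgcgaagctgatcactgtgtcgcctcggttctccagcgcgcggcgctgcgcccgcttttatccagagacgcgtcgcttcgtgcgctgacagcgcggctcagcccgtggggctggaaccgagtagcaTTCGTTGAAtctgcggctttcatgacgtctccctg
*Setd4* (chr16:93603766-93604065, reverse strand) is shown as the gene whose level differed most between genotypes. *Cryzl1* (chr16:91728753-91729052, reverse strand) and *Itsn1* (chr16:91729121-91729420, forward strand) are shown as a pair transcribed away from each other, with 68 bases between their promoters and 569 bases between their starts. Neither motif was found in these 3 windows.
*Setd4*: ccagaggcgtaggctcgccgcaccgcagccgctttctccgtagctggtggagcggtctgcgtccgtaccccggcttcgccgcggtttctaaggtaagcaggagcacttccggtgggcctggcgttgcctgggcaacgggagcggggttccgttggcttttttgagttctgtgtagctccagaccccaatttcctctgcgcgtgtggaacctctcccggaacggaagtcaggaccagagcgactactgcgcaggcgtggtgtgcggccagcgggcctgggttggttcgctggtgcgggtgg
*Cryzl1*: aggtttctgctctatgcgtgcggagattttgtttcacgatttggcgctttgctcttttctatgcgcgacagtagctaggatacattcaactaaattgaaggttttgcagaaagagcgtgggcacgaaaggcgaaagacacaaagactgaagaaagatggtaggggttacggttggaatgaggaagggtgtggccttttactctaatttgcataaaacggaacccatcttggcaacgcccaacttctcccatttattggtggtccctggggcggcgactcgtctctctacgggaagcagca
*Itsn1*: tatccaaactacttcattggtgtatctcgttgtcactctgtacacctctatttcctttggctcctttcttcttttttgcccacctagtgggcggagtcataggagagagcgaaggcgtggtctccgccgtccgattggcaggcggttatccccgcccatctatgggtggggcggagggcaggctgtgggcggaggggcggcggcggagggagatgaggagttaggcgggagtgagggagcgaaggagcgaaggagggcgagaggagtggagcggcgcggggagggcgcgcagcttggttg
The GC content was 65.3% in the promoter of *Setd4*, 48.3% in that of *Cryzl1* and 61.7% in that of *Itsn1*, against a median of 52.7% over all promoters.

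The libraries held 7869 to 12457 barcodes and 66059561 to 93228638 unique molecular identifiers (UMIs), and 5279 to 9352 nuclei per library passed the filters. Levels are given as normalised CPM, which are UMIs divided by the effective size of the library after TMM scaling. Replicate 3 of the WT DMXAA group stood apart. Its TMM factor was 0.845, against 1.09 to 1.18 in the other 7 WT libraries and 0.854 to 0.974 in the KO libraries. The nuclear RNA *Malat1* took 2.38% of its UMIs, against 5.32 to 9.12% and 1.27 to 2.79%. This library is shown apart throughout. Hippocampal markers were present in every library, with *Prox1* at 77.3 to 126 and *Cpne4* at 145 to 316 normalised CPM. *Wfs1* and *Fibcd1* were lower, at 8.47 to 13.2 and 7.08 to 15.1. Nuclei in clusters left without a name were 7.91 to 17.5% per library, most in WT DMXAA replicate 3. They stayed in the values over all nuclei. Such a cluster of 160 nuclei was led by *Gh* and *Prl*, with 41.9% from WT DMXAA replicate 4. Another of 592 nuclei was led by *Gabra6* and *Fat2*, with 32.8% from KO DMXAA replicate 4. Of 16 interferon-stimulated genes used as a check of DMXAA, 15 rose in WT, 0 were called in KO and 5 were called for the difference between these effects, or 16, 0 and 10 without replicate 3. The share of astrocytes was 14.8 to 18.2% of nuclei in KO and 8.47 to 13.3% in WT. In levels over all nuclei, fewer nuclei of a type and less RNA per nucleus cannot be told apart. The same holds within a class that pools clusters, as excitatory neurons did. A cluster of 2364 of these nuclei, with *Cux2* among its leading genes, had 22.9% from WT vehicle replicate 3.

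The targeted gene was read first. *Ifnar1* stood at 15.3, 16.7, 16.5 and 16.7 normalised CPM in the 4 WT vehicle libraries and at 16.9, 16.3, 16.04 and 15.5 in the WT DMXAA libraries. The KO vehicle libraries stood at 12.9, 12.7, 12.7 and 13.3, and the KO DMXAA libraries at 13.1, 12.8, 12.6 and 12.3. Every KO library lay below every WT library, and the KO mean was 79.0% of the WT mean. The 3' reads counted here do not show which part of the gene is missing, and most of its nuclear reads were retained. By class of nucleus, the log2 difference of *Ifnar1* (KO minus WT) was -0.42 to -0.57 in 6 classes and -0.07 ± 0.10 (SE) in oligodendrocytes.

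Between genotypes, 5 of the 10 genes were lower in KO (*Son*, *Setd4*, *Hmgn1*, *Sod1* and *Pigp*) and 5 were higher (*Runx1*, *Kcnj6*, *Itsn1*, *Eva1c* and *Cryzl1*). Calls required an edgeR quasi-likelihood adjusted p under 0.05 together with a log2 difference over 0.1 in either direction. All 10 were past these limits, and so were 57.7% of the 20208 genes tested, 26.0% higher and 31.6% lower in KO. In the vehicle libraries alone 10 of 10 were past them, as were 58.2% of all genes. In the DMXAA libraries alone 3 of 10 were (*Sod1*, *Setd4* and *Hmgn1*), as were 4.21% of all genes. The 8 KO and 8 WT libraries did not overlap for 4 of the 10 genes (*Sod1*, *Cryzl1*, *Setd4* and *Hmgn1*), and did not overlap for 7.64% of all genes. With WT DMXAA replicate 3 apart, 9 of the 10 did not overlap, all but *Runx1*, against 34.1% of all genes. That library lay within the KO range for 6 of the 10 genes and within the range of the other WT libraries for 3. Because the 10 genes were picked for their levels in WT and KO, these counts are a description.

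**Figure D1:**
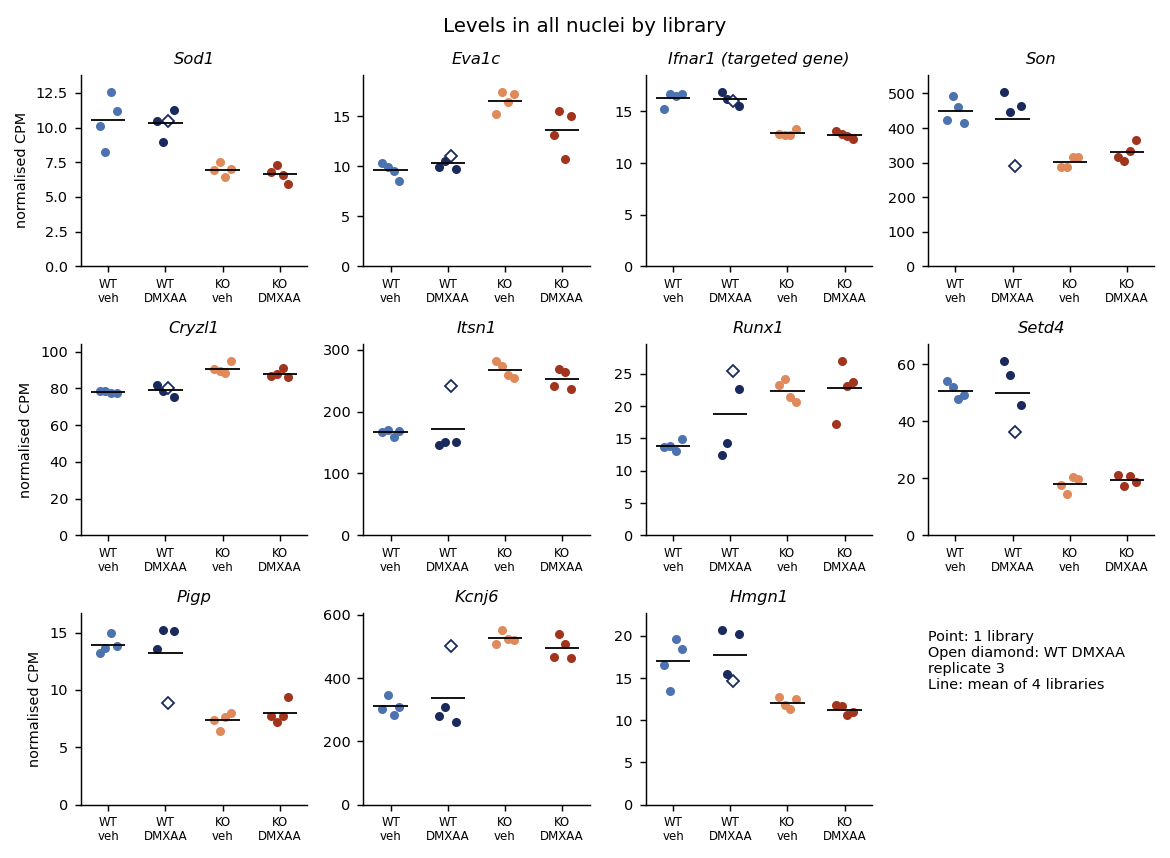
Level of each of the 10 genes and *Ifnar1* in all nuclei, in order of position, as normalised CPM (vertical axis, from 0) by group (horizontal axis). Points are libraries, lines are means of 4 libraries, and the open diamond is WT DMXAA replicate 3, which sits among the KO libraries for *Son* and *Kcnj6* and among the WT libraries for *Sod1* and *Cryzl1*.

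*Son*, a large protein of nuclear speckles that promotes splicing of pre-mRNA, gave 245261 UMIs over the 16 libraries. The other 7 WT libraries lay at 414 to 504 normalised CPM with a median of 461, and the KO libraries at 288 to 366 with a median of 316. WT DMXAA replicate 3 was at 289.6, near the lowest KO library. The KO mean was 72.3% of the mean of the 8 WT libraries, a log2 difference of -0.47 ± 0.10 (SE), and -0.54 without replicate 3.

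*Setd4*, a SET-domain protein methyltransferase, showed the widest gap of the 10. It was at 54.1, 52.1, 47.9 and 49.3 normalised CPM in the WT vehicle libraries and at 61.2, 56.4, 36.3 and 45.9 in the WT DMXAA libraries. It was at 17.8, 14.7, 20.4 and 19.9 in the KO vehicle libraries and at 21.1, 17.3, 21 and 18.6 in the KO DMXAA libraries. No KO library reached the lowest WT library, which was WT DMXAA replicate 3 at 36.3. The KO mean was 37.4% of the WT mean (log2 difference -1.42 ± 0.10 SE, n = 8 and 8).

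*Hmgn1*, a protein that binds nucleosomes and loosens chromatin, lay at 10.7 to 12.8 normalised CPM in KO with a median of 11.7. The other 7 WT libraries lay at 13.5 to 20.7 with a median of 18.4, and replicate 3 at 14.7 was inside their range. The log2 difference was -0.57 ± 0.09 (SE).

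*Runx1*, a transcription factor of blood lineages that microglia also express, was at 13.6, 13.9, 13.1 and 14.98 normalised CPM in the WT vehicle libraries. The WT DMXAA libraries stood at 12.5, 14.3, 25.4 and 22.7, so that replicate 4 as well as replicate 3 lay among the KO libraries. The KO libraries ranged from 17.2 to 26.95 with a median of 23.2. The log2 difference was 0.48 ± 0.13 (SE), the largest error of the 10 genes. It was 0.70 among the vehicle libraries and 0.28 among the DMXAA libraries.

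*Kcnj6*, a subunit of G protein-gated inward rectifier potassium channels, lay at 260 to 347.5 normalised CPM in the other 7 WT libraries with a median of 303. The KO libraries lay at 462 to 551 with a median of 515, and WT DMXAA replicate 3 at 502.7 was among them. The log2 difference was 0.65 ± 0.12 (SE), or 0.78 without that library.

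*Itsn1*, a scaffold of clathrin-mediated endocytosis and synaptic vesicle recycling, showed a like pattern. It lay at 145.6 to 169.6 normalised CPM in the other 7 WT libraries and at 236.6 to 281 in KO, with WT DMXAA replicate 3 at 241. The KO mean was 153.6% of the WT mean, a log2 difference of 0.62 ± 0.09 (SE).

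*Eva1c*, a transmembrane protein with lectin-type domains, lay at 8.54 to 10.5 normalised CPM in the other 7 WT libraries. WT DMXAA replicate 3 was at 11.01, just above the lowest KO library at 10.75, and the other KO libraries reached 17.5. The log2 difference was 0.60 ± 0.08 (SE). It was 0.80 among the vehicle libraries and 0.40 among the DMXAA libraries.

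The remaining 3 genes, related to metabolic enzymes, split in direction. *Sod1*, the copper-zinc superoxide dismutase, lay at 8.22 to 12.6 normalised CPM in WT, with replicate 3 at 10.5, and at 5.94 to 7.52 in KO. *Pigp*, a subunit of the enzyme that begins the synthesis of glycosylphosphatidylinositol anchors, lay at 13.2 to 15.2 in the other 7 WT libraries, at 8.90 in replicate 3 and at 6.44 to 9.38 in KO. *Cryzl1*, which resembles quinone oxidoreductases, lay at 75.3 to 81.9 in WT, replicate 3 included, and at 86.1 to 94.9 in KO. The log2 differences were -0.61 ± 0.09, -0.82 ± 0.10 and 0.19 ± 0.04 (SE). The direction of *Cryzl1* rested on the scaling: with library totals in place of TMM it was -0.07. That change moved the median of all genes by 0.26, and no other of the 10 genes changed sign. *Cryzl1* and *Runx1* were then no longer past the limits, with *Runx1* at 0.24.

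Nuclei were then split into classes by marker genes, and 7 classes with enough nuclei in every library were compared. *Son*, *Setd4* and *Pigp* were lower in KO past the limits in 7 of 7 classes. *Hmgn1* was lower in 5 of 7, with -0.10 ± 0.21 (SE) in fibroblasts and -0.40 ± 0.25 in microglia, and *Sod1* was lower in 2 of the 5 classes in which it could be fitted. *Itsn1* was higher in 5 of 7 classes, *Cryzl1* in 3 of 7, *Kcnj6* in 2 of 7 and *Runx1* in 1 of 2. *Eva1c* was higher in 2 and lower in 1 of 5. Without WT DMXAA replicate 3, 6 more of these fitted values passed the limits and none fell short. They included *Kcnj6* in astrocytes, microglia, oligodendrocytes and oligodendrocyte precursors, which made 6 of 7 classes. The others were *Itsn1* in microglia and *Runx1* in excitatory neurons. *Eva1c* in oligodendrocyte precursors could be fitted only without that library, and was then higher in KO past the limits, at 1.26. The calls of *Eva1c* in excitatory neurons and of *Hmgn1* in inhibitory neurons and oligodendrocyte precursors were lost in 8, 10 and 10 of the 16 fits that left out 1 library, and that of *Pigp* in microglia in 2. Differences that were not past the limits had the sign of the called ones for these genes other than *Eva1c*. The number past the limits was 9 of 10 in excitatory neurons, where 57.6% of all genes were called, and 8 of 9 in inhibitory neurons (48.3%). It was 5 of 9 in astrocytes (39.5%), 8 of 9 in oligodendrocytes (41.6%) and 5 of 7 in oligodendrocyte precursors (35.8%). It was 4 of 8 in microglia (29.5%) and 3 of 9 in fibroblasts (21.3%). The genes were picked for their levels in WT and KO. These counts are therefore a description, and an excess over all genes follows from the choice.

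**Figure D2:**
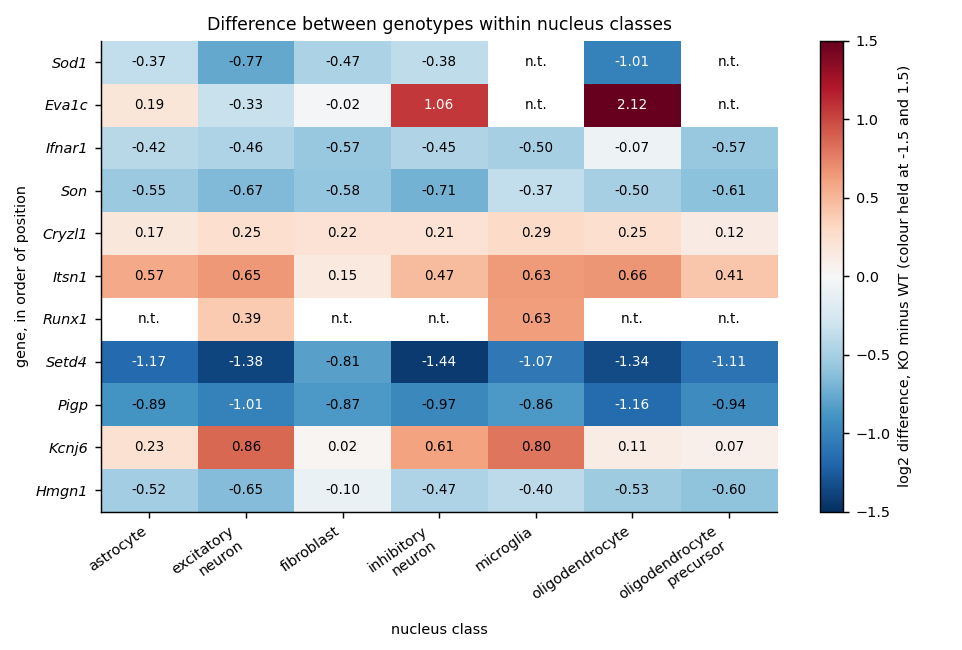
Log2 difference between KO and WT (colour and printed value, KO minus WT) for each gene (rows) in each class of nuclei (columns), with n.t. where too few reads were present for the fit. *Setd4* ranged from -1.44 to -0.81, and *Eva1c* from -0.33 in excitatory neurons to 2.12 in oligodendrocytes.

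*Eva1c* was the gene whose difference depended most on class. In oligodendrocytes the other 7 WT libraries lay at 2.11 to 9.56 normalised CPM, replicate 3 at 7.26 and the KO libraries at 21.5 to 45.9. In inhibitory neurons the KO libraries lay at 24.3 to 43.6 and all WT libraries at 14.6 to 19.3. Both classes were without overlap, with log2 differences of 2.12 ± 0.22 and 1.06 ± 0.12 (SE). In excitatory neurons *Eva1c* was instead lower in KO (-0.33 ± 0.13), and the libraries overlapped. In fibroblasts, where its level was highest, it lay at 222 to 276.5 in the other 7 WT libraries and at 203 to 318 in KO, a difference of -0.02 ± 0.11. The difference between classes was not tested. The share of all genes without overlap was not counted by class, so overlap within classes is a description for each gene.

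*Setd4* was lower in KO without overlap in 5 of the 7 classes. In excitatory neurons it lay at 17.4 to 24.4 normalised CPM in KO and at 53.5 to 67.1 in the other 7 WT libraries, with replicate 3 at 38.1. In astrocytes it lay at 10.4 to 13.2 in KO and at 22.5 to 30.6 in all WT libraries. In oligodendrocytes replicate 3, at 23.8, lay inside the range of the other WT libraries, 14.7 to 25.3, and the KO libraries lay at 5.95 to 9.84. Fibroblasts and microglia overlapped, with differences of -0.81 ± 0.17 and -1.07 ± 0.22 (SE). *Setd4* was picked for its levels in WT and KO, and the share of all genes without overlap was not counted by class.

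Microglia held 10380 of the *Runx1* UMIs (85.8%) and border macrophages 9.28%. In microglia it lay at 659 to 1168 normalised CPM in the other 7 WT libraries, at 1121 in replicate 3 and at 1234 to 1522 in KO. The KO and WT libraries did not overlap there, and the log2 difference was 0.63 ± 0.10 (SE). The median of the other 7 WT libraries was 0.24 in excitatory neurons and 9.22 in fibroblasts. Border macrophages were 1.39% of the nuclei of WT DMXAA replicate 3 and gave 18.8% of its *Runx1* UMIs, against 0.134 to 0.437% of nuclei in the other WT libraries and 0.371 to 0.563% in KO. So replicate 3 lay inside the WT range of *Runx1* in microglia but above it over all nuclei, and the part of border macrophages in this was not tested.

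*Kcnj6* was highest in excitatory neurons, at 361 to 464 normalised CPM in the other 7 WT libraries, 601 in replicate 3 and 651 to 851 in KO (log2 difference 0.86 ± 0.10 SE). In inhibitory neurons it lay at 124 to 182 in those WT libraries, at 233 in replicate 3 and at 222 to 282 in KO, so that replicate 3 lay inside the KO range. The other 5 classes were not past the limits with replicate 3, and 4 of them were without it. Without it the difference went from 0.23 to 0.94 in astrocytes, from 0.11 to 0.91 in oligodendrocytes and from 0.80 to 1.65 in microglia. WT DMXAA replicate 3 held 88 in astrocytes, where the other WT libraries held 7.504 to 19.2, and 155 in microglia, where they held 13.8 to 25.4. It also held 120 in oligodendrocytes, where they held 11.6 to 20.4. The summed level of 7 excitatory neuron markers moved with this in neurons and in glia. In excitatory neurons it was 3001 in replicate 3, 1852 to 1989 in the other WT libraries and 2642 to 3582 in KO. In astrocytes it was 385 in replicate 3, 135 to 180 in the other WT libraries and 142 to 234 in KO, and in microglia it was 564, 135 to 295 and 275 to 447. The part of these markers' shift in the *Kcnj6* differences was not tested.

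*Son* and *Itsn1* were both highest in astrocytes among the 7 classes. *Son* lay at 1215 to 1723 normalised CPM there in the other 7 WT libraries, at 777 in replicate 3 and at 795 to 1068 in KO. *Itsn1* lay at 332 to 450 in all WT libraries but replicate 3, at 431 in replicate 3 and at 524 to 614 in KO. Astrocytes held a larger share of nuclei in KO, and the part of that share in the values over all nuclei was not tested. Within the classes *Son* differed by -0.37 in microglia to -0.71 in inhibitory neurons.

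*Pigp* differed by -0.86 to -1.16 across the 7 classes, a narrow range. In oligodendrocytes it lay at 19.5 to 24.5 normalised CPM in the other 7 WT libraries, at 13.1 in replicate 3 and at 5.49 to 14.3 in KO. *Hmgn1* differed by -0.65 ± 0.10 (SE) in excitatory neurons and by -0.10 ± 0.21 in fibroblasts. *Sod1* differed by -1.01 ± 0.21 in oligodendrocytes and by -0.37 ± 0.16 in astrocytes. *Cryzl1* differed by 0.12 to 0.29, and in excitatory neurons its 0.25 became -0.13 with library totals in place of TMM. With that change its calls in excitatory neurons, inhibitory neurons and oligodendrocytes were all lost.

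The effect of DMXAA on the 10 genes was tested next, as the study compared the drug between mice with and without the interferon receptor. None was called. In all nuclei, 0 of 10 were called in WT, where 0.46% of all genes were, and 0 of 10 in KO, where 0.0% were. For the difference between the effects (the interaction) 0 of 10 were called, against 0.0544% of all genes. DESeq2 also called 0 of 10 in each contrast. Only 1 of the 10 had an unadjusted p under 0.05 in each contrast. *Runx1* in WT differed by 0.43 ± 0.19 (SE; edgeR adjusted p = 0.899), and by 0.24 ± 0.17 without replicate 3. *Eva1c* in KO differed by -0.29 ± 0.11 (edgeR adjusted p = 0.777), and its interaction was -0.39 ± 0.16 (adjusted p = 0.657). Without replicate 3 the lowest edgeR adjusted p were 0.203 in WT (*Itsn1*), 0.173 in KO and 0.463 for the interaction (both *Eva1c*). In that fit 0 of 10 were called in each contrast, against 1.59%, 0.0% and 0.249% of all genes.

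**Figure D3:**
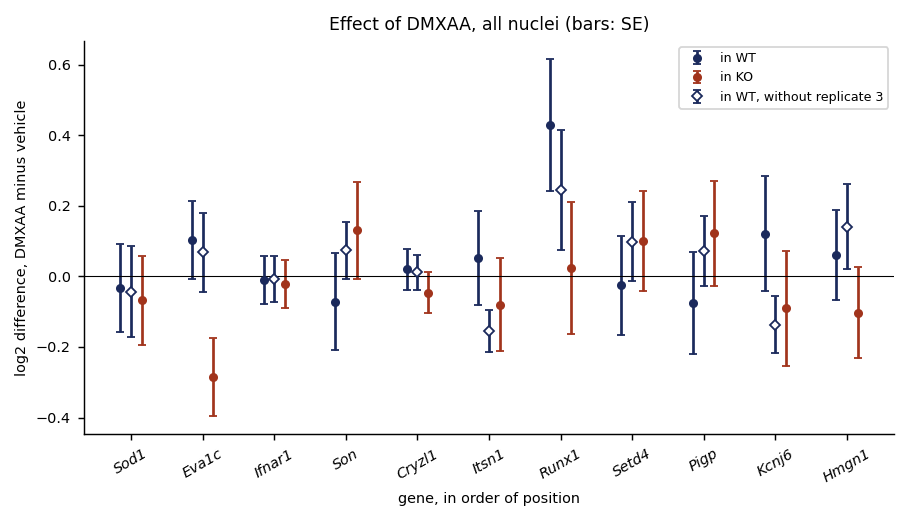
Log2 difference between DMXAA and vehicle (vertical axis, DMXAA minus vehicle) for each gene in all nuclei, in WT, in KO, and in WT without replicate 3. Points are estimates and bars are SE. *Runx1* in WT, at 0.43, lies farthest from 0, and no gene was called.

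By class, 183 tests of the 10 genes over the 7 classes and 3 contrasts gave 0 calls, by edgeR and by DESeq2, and 9 had an unadjusted p under 0.05. Over all genes and the same classes, 0.28% of tests were called in WT, 0.0% in KO and 0.0262% for the interaction. The lowest adjusted p was that of *Pigp* in WT microglia, with a log2 difference of -0.84 ± 0.32 (SE; edgeR adjusted p = 0.305). Without replicate 3, 186 tests gave 0 calls and 18 had an unadjusted p under 0.05. Over all genes and classes 1.51% of tests were then called in WT, 0.267% in KO and 0.11% for the interaction. The lowest edgeR adjusted p were then 0.051 for *Itsn1* in WT microglia, at -0.82 ± 0.25 in place of -0.11 ± 0.36, and 0.0764 for *Kcnj6* in KO microglia, at -1.26 ± 0.31. *Setd4* in microglia differed by 0.58 ± 0.26 in WT and by 0.82 ± 0.35 in KO, with edgeR adjusted p of 0.467 and 0.885. *Kcnj6* had an interaction of -2.495 ± 0.96 in microglia (adjusted p = 0.516), which was -0.80 ± 0.54 without replicate 3. In excitatory neurons the effects on the 10 genes lay between -0.32 and 0.14 in WT and between -0.23 and 0.19 in KO. Without replicate 3 the lower end in WT was *Runx1* at -1.11 ± 0.42 (adjusted p = 0.244), a gene with 144 UMIs in that class.

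The genes around *Ifnar1* that were not among the 10 were then counted. The interval held 237 other annotated genes, of which 134 were tested and 81 (60.4%) were called, 35 higher and 46 lower in KO. In the vehicle libraries alone 62.8% of the neighbours and 58.2% of all genes were called. In the DMXAA libraries alone 2 of 126 neighbours (1.59%) and 4.21% of all genes were. On the rest of chromosome 16, 272 of 483 genes (56.3%) were called, and on other chromosomes 11281 of 19556 (57.7%). Narrower windows gave 60.5% within 1 Mb, 60.7% within 5 Mb and 60.5% within 10 Mb. In all nuclei and with all libraries, the shares by window lay close to that of the genome. The last annotated gene of the chromosome ends 6.6 Mb beyond *Ifnar1*. Within 1 Mb, 17 of the called genes were lower and 6 higher in KO, where other chromosomes had 6189 lower and 5092 higher. The median log2 difference within 1 Mb was -0.21, against -0.05 on other chromosomes. By class it was -0.315 in microglia to -0.0774 in inhibitory neurons, below that of other chromosomes in each class. Farther out in all nuclei, medians by distance ran from -0.321 (5 to 7 Mb beyond *Ifnar1*) to 0.171 (2.5 to 5 Mb before it). A median this low was therefore not particular to the nearest genes. These directions were not tested, nor was the part of gene length in them. Without WT DMXAA replicate 3, 95 (70.4%) of the neighbours and 69.6% of all genes were called. By class the neighbours were called at 40.2% in astrocytes, 59.3% in excitatory neurons and 40.9% in oligodendrocytes, against 39.4%, 57.6% and 41.6% of genes on other chromosomes. The shares were farther apart in the other classes. They were 17 of 56 (30.4%) in fibroblasts, 46 of 81 (56.8%) in inhibitory neurons, 19 of 53 (35.8%) in microglia and 28 of 66 (42.4%) in oligodendrocyte precursors, against 21.2%, 48.3%, 29.5% and 35.6% on other chromosomes. Without replicate 3 they were 47.5%, 65.9%, 66.7% and 53.6%, against 34.4%, 59.8%, 49.4% and 48.6% of all genes. Astrocytes, excitatory neurons and oligodendrocytes were then at 60.7%, 73.7% and 60.4%, against 55.7%, 69.0% and 60.7% of all genes. These differences were not tested. At the edge of the interval, 8030451O07Rik, 19.3 Mb away and just inside, differed by -1.17 ± 0.33 (SE), and *Gbe1*, 21.2 Mb away and just outside, by 0.42 ± 0.06.

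**Figure D4:**
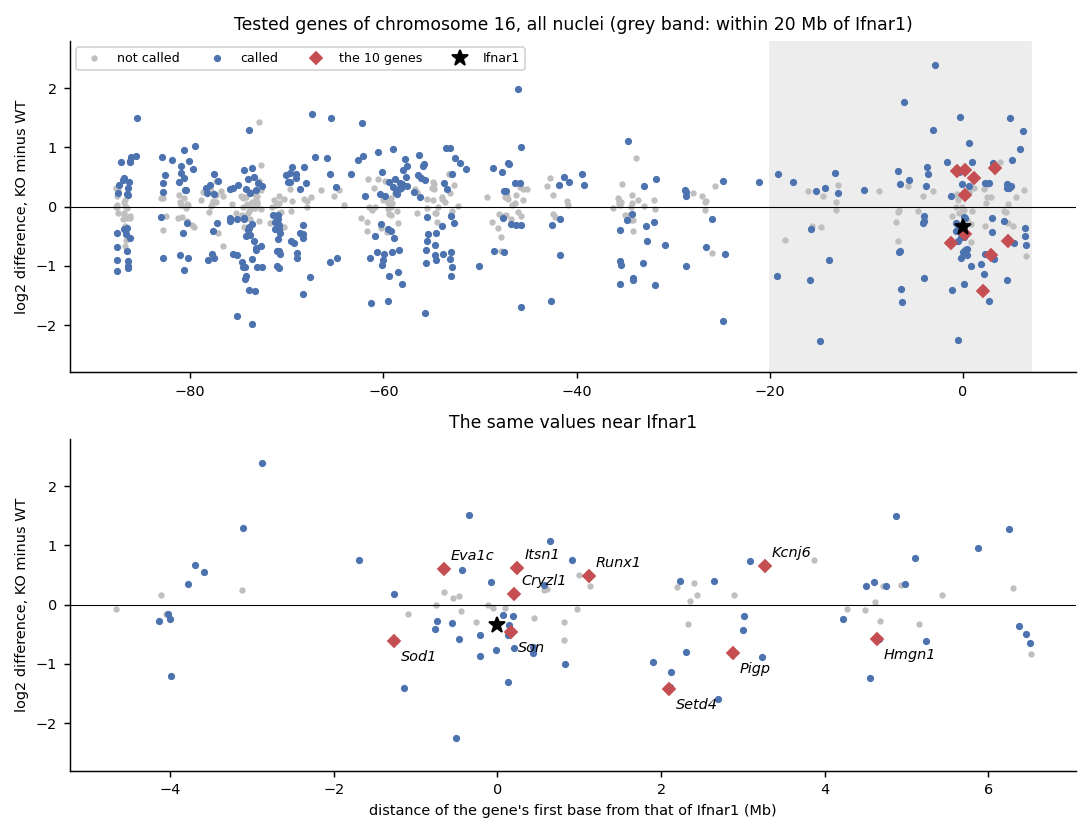
Log2 difference between KO and WT in all nuclei (vertical axis) for the tested genes of chromosome 16 by distance from *Ifnar1* in Mb (horizontal axis), whole chromosome above and the nearest genes below. Blue points were called, grey points were not, red diamonds are the 10 genes and the star is *Ifnar1*. Called genes are spread along the chromosome, 60.4% of those within 20 Mb and 56.3% of the rest.

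The tested genes nearest to *Ifnar1* did not move together. *Ifnar2*, the other subunit of the same receptor, differed by 0.00 ± 0.05 (SE) and was not called, with 23.1 normalised CPM in both genotypes. *Il10rb*, a subunit of the interleukin-10 receptor, was higher in KO (0.38 ± 0.08), and *Ifngr2*, a subunit of the interferon gamma receptor, was lower (-0.18 ± 0.05). The non-coding genes A930006K02Rik and *Gm15964* were lower, at -0.77 ± 0.21 and -1.31 ± 0.34, and *Gm49625* was not called (-0.05 ± 0.26). *Tmem50b* was not called either (-0.06 ± 0.10), and *Dnajc28* was lower (-0.51 ± 0.16). With library totals in place of TMM, *Ifnar2* was -0.26.

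Of the 134 tested neighbours, 10 (7.46%) had KO libraries that did not overlap any WT library, a share near the 7.64% of all genes. They are named by the rule and not as a property of the interval. The 5 higher in KO were the non-coding genes *Gm49688* (log2 difference 2.39), *Gm41492* (1.52), 4930420G21Rik (1.29) and *Mir99ahg* (0.32), and *Jam2* (0.60), a junctional adhesion molecule. 4930420G21Rik lay at 11.6 to 34.8 normalised CPM in WT and at 45.1 to 79.1 in KO. The 5 lower in KO were the non-coding *Gm45029* (-2.27) and the genes B230307C23Rik (-0.65), *Wrb* (-0.58), which inserts tail-anchored proteins into membranes, *Zbtb21* (-0.49), a zinc finger protein, and *N6amt1* (-0.28), a methyltransferase. *Gm49688* and *Gm45029* were under 1 normalised CPM in every library.

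Lists of genes of the interval were counted by function. A list of brain genes, most of them neuronal or synaptic, also held *Olig1* and *Olig2* of the oligodendrocyte lineage and the potassium channel subunit *Kcne2*. Of its 18 tested genes that were not among the 10, 12 were higher and 1 was lower in KO, where 26.0% of all genes were higher and 31.6% lower. The median log2 difference was 0.39 against -0.05 over all genes. The median length of the 18 was 106 kb, and genes in the bin of length around that value had a median of 0.36. Of the 18, 15 belonged to the longest quartile of all genes, of which 62.2% were higher. *Dyrk1a*, a kinase of neuronal development, was higher by 0.74 ± 0.12 (SE), and *App*, the amyloid precursor, by 0.38 ± 0.10. *Dscam*, an adhesion molecule of neurons, was higher by 0.79 ± 0.14, and *Olig1*, a transcription factor of oligodendrocytes, was lower (-0.51 ± 0.16). Of 13 tested chromatin, transcription and RNA genes, 3 were higher and 5 lower (median -0.05), *Paxbp1* among the latter (-0.58 ± 0.11). Of the 4 cytokine receptor genes, 1 was higher and 2 were lower, *Ifnar1* included. Nuclear speckle and SR protein genes from anywhere in the genome were counted beside *Son*. Of 18, 14 were lower and 0 higher in KO, with a median of -0.55 against -0.05 over all genes, of which 31.6% were lower. The median length of the 18 was 12.9 kb, and genes in the bins of length around 11.6 and 14.0 kb had medians of -0.27 and -0.19. The 14 included *Srsf2* (-1.17 ± 0.12), *Pnn* (-1.20 ± 0.15) and *Malat1* (-1.39 ± 0.23).

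The length of the genes moved with the direction of their difference. This was looked at after the values had been seen, and its part in the differences was not tested. All genes were ranked by length and cut into 4 sets of like size. The shortest set, up to 8.39 kb, had a median log2 difference of -0.57, with 57.3% called lower and 5.73% higher in KO. The longest set, from 54.5 kb, had a median of 0.36, with 62.2% higher and 6.84% lower. *Sod1* (5.58 kb) and *Hmgn1* (7.11 kb) belonged to the shortest set and were lower in KO. *Eva1c* (78.4 kb), *Itsn1* (191 kb), *Runx1* (225 kb) and *Kcnj6* (249 kb) belonged to the longest and were higher. Among the neighbours, 20 of 32 in the shortest set were lower and 1 higher, and 23 of 45 in the longest were higher and 5 lower. Across genes Spearman's rho between length and the difference was 0.585 in all nuclei and 0.617 to 0.683 by class. The difference between DMXAA and vehicle in KO ran the other way, with rho of -0.35 in all nuclei and -0.429 to -0.239 by class. Genes are not independent replicates, and these values are a description. WT DMXAA replicate 3 differed from the other 3 WT DMXAA libraries along the same axis, with medians of -0.46 in the shortest and 0.44 in the longest set.

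Set beside genes of like length, the 10 genes fell into 3 sets. *Sod1*, *Hmgn1*, *Cryzl1*, *Itsn1*, *Runx1* and *Kcnj6* lay between the 25th and 75th percentiles of the 1008 to 1010 genes in their bin of length. *Setd4* (20.6 kb) and *Pigp* (13.1 kb) lay below, where the medians at their lengths were -0.11 and -0.19, and 1.39% and 8.13% of genes of like length were lower. *Son* (31.7 kb) stood at -0.47 where the median was 0.03, with 11.5% of genes lower. *Eva1c* stood at 0.60 where the median was 0.26, with 83.3% of genes lower. These ranks use the levels for which the genes were picked, so they are a description.

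**Figure D5:**
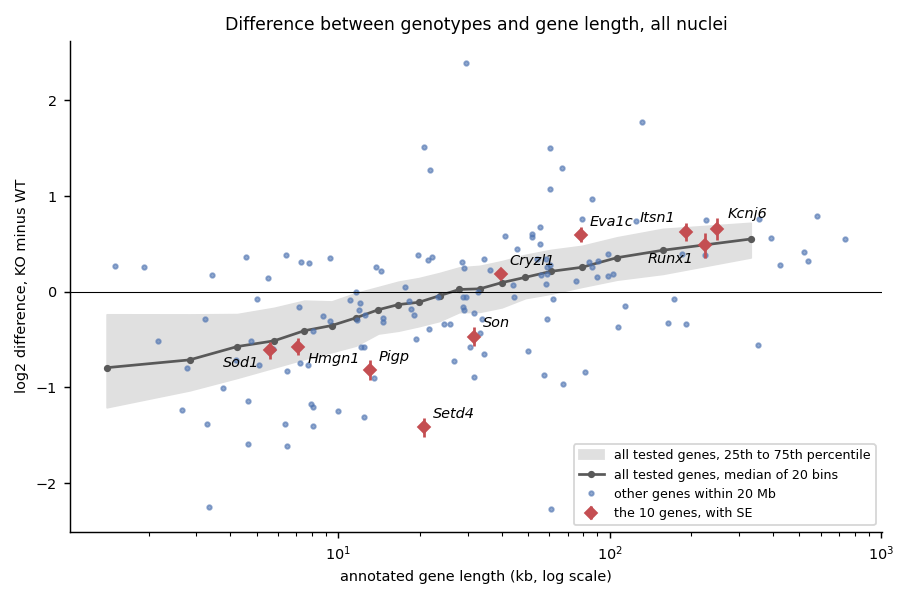
Log2 difference between KO and WT in all nuclei (vertical axis) by annotated gene length in kb (horizontal axis, log scale). The grey line and band are the median and the 25th to 75th percentiles of all tested genes in 20 bins of length, blue points are other genes within 20 Mb of *Ifnar1*, and red diamonds are the 10 genes with SE. *Setd4* at -1.42 lies far below the band and *Kcnj6* at 0.65 within it.

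Genes whose level over the 16 libraries ran most like that of *Son* lay on other chromosomes, as did 19556 of the 20208 genes tested. The genes were *Tmem179b*, *Hint2*, *Jtb*, 5830448L01Rik and *Smim19*, with Pearson r of 0.977 to 0.985 over the 16 libraries. All libraries share the difference between genotypes and the order of their TMM factors, so that r is a description. Within the 8 KO libraries r was 0.783 to 0.952, and within the other 7 WT libraries it was 0.602 to 0.864. These libraries are among those used to pick the genes, so these values are a description too.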

How the data were processed

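Single-nucleus RNA-seq libraries of mouse hippocampus were prepared with a droplet-based 3' kit from 16 animals in 4 groups of 4. The deposited values are UMI counts of each gene in each barcode, whole and not normalised, which the authors made with Cell Ranger on mm10 from reads that included pre-mRNA. The file headers name Cell Ranger 6.1.2, the submitters' processing notes Cell Ranger 3.1.0 and Seurat 3.0. Genes were placed by GENCODE M21 on GRCm38, which held 32158 of 32285 identifiers. Promoter sequences came from RefSeq on GRCm38.p6.

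Nuclei with 200 to 4000 genes and at most 5% mitochondrial UMIs were kept, and doublets called from simulated doublets at 0.8% per 1000 barcodes were removed, leaving 112197 of 155084 barcodes. A pair of libraries shared 0.144 to 0.445% of barcodes. Counts scaled to 10000 and logged, 2000 variable genes, 30 components and 20 neighbours entered Leiden clustering at resolution 0.5 (leidenalg 0.10.2, Python 3.11.15). Of 33 clusters, 7 with 13047 nuclei stayed unnamed. Class names (astrocyte-like, microglia-like) were rebuilt here from marker lists, so a class may differ from that of the study for this reason. The thresholds for naming were chosen once the clusters were known.

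UMIs were summed per library over all nuclei and per class with at least 20 nuclei in every library. edgeR 4.0.16 in R 4.3.3 was fitted to 4 groups over all tested genes, after filterByExpr and TMM, with two-sided quasi-likelihood F tests, with p-values adjusted by Benjamini-Hochberg. Calls needed an adjusted p below 0.05 and a log2 difference above 0.1 in either direction, the limits of the study, which tested single nuclei. The genotype contrast was the mean of both KO groups minus the mean of both WT groups. The code was tested on simulated data. Of 100 genes above the median level given a genotype difference of 0.5 in log2, 72 were called in all nuclei and 21 in microglia. For a difference of 1.0 these were 98 and 81. The contrasts of DMXAA with vehicle were not simulated.

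Named neighbours were the 5 largest called rises and falls without overlap between genotypes, and the 4 tested genes nearest to *Ifnar1* on each side. Genes like *Son* were the 5 with the highest Pearson r. The 10 genes, the lists, the rules and the tests were chosen with earlier results of these data known. Alternatives were DESeq2 1.42.0, other scaling and filters, all barcodes, other windows, each treatment alone and each library left out, and library totals alone were added after the data had been seen. Replicate numbers within groups only name animals, and no sample was left out of the fits unless stated.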

Additional observations from a re-analysis of the deposited data

Results flagged for a closer look

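Among 44 groups of 4 libraries (the 10 genes and *Ifnar1* in 4 groups), 2 held a library far from the others by Dixon's ratio, the gap to the nearest library over the range of the group, past the 95% critical value for 4 libraries. Chance alone marks about 1 group in 20. *Itsn1* in WT DMXAA replicate 3 had a ratio of 0.937, at 241 normalised CPM against 146 to 152 in the other libraries of its group. *Ifnar1* in WT vehicle replicate 1 had a ratio of 0.830, at 15.3 against 16.5 to 16.7.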

How the results depend on the processing

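Of 1155 alternative values of the neighbours, of the genes like *Son* and of the effects of DMXAA, 1140 kept their direction and side of the limits, 13 were no longer past them, 1 came to pass them and 1 reversed. Of 1624 alternative differences between genotypes of the 10 genes and *Ifnar1*, which were held against the spread, 1594 moved by less than it, 28 moved by more and 2 reversed. Held against the limits, 1460 alternative values of the 10 genes gained 15 calls and lost 48. Leaving out WT DMXAA replicate 3 gave 6 of the gains and 0 of the losses. Values that could be fitted only in an alternative, as *Eva1c* in oligodendrocyte precursors without that replicate, are not in this count. The 3 reversed with library totals alone: *Cryzl1* to -0.0719 in all nuclei and -0.13 in excitatory neurons, and *Ifnar2* to -0.26. Of 421 alternative counts, 404 stayed within 1.5 times. For KO against WT in all nuclei, 11657 genes were called, 11342 in the vehicle libraries alone and 813 in the DMXAA libraries alone (58.2% and 4.21% of those tested). Of the neighbours within 20 Mb, 81 were called in the vehicle libraries alone and 2 (1.59%) in the DMXAA libraries alone. Both comparisons had 4 and 4 libraries, and the second held WT DMXAA replicate 3. For DMXAA in WT, 93 genes were called, 151 by DESeq2 and 61 to 325 with each library left out in turn, lowest without WT vehicle replicate 4 and highest without WT DMXAA replicate 3. For the interaction, 11 were called, 133 by DESeq2, 4 with library totals alone and 7 to 51 with a library left out, highest without that replicate. For KO against WT the counts with a library left out were 1516 to 3208 in fibroblasts and 2134 to 4544 in microglia. For the neighbours they were 30 to 51 in astrocytes, 11 to 29 in fibroblasts, 15 to 36 in microglia and 34 to 55 in oligodendrocytes. The highest count was without WT DMXAA replicate 3 each time. The cause was not tested. For DMXAA in KO, 0 genes were called by edgeR and by DESeq2, and 1139 had an unadjusted p under 0.05. Counting error limits genes with few UMIs, the least being 190 for *Pigp* in 1 library over all nuclei, and by class 1 for *Pigp* in oligodendrocyte precursors and 3 for *Pigp* and *Hmgn1* in microglia, *Kcnj6* in fibroblasts and *Runx1* in excitatory neurons. No paired analysis was possible because replicate numbers pair no animals.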
